A study of Mus musculus with 2 samples.

Results

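Mural cells, the pericytes and smooth muscle cells that wrap retinal vessels, were described here in dissociated retinas of mouse pups at postnatal day 6. They were chosen by a gate on single-cell counts. A barcode had to hold at least 1000 UMIs (unique molecules), at least 500 genes and between 1 and 10% mitochondrial UMIs. Its summed Rgs5, Kcnj8, Pdgfrb and Higd1b had to reach 1000 CPM (counts scaled to the cell's total UMIs) and its 8 endothelial genes (Pecam1, Cdh5, Cldn5, Kdr, Flt1, Egfl7, Esam and Ramp2) had to sum to under 2000 CPM. The gate held 166 cells, out of 10347 cells that passed the filters and 14047 barcodes in all. The library labelled Alk1 ECKO (genotype Alk1f/f Cdh5 CreERT2, an inducible Cre under an endothelial promoter, ECKO below) gave 154 of them. The control library (Alk1f/f, floxed alleles without Cre) gave the other 12. Both cell suspensions had been enriched on beads against CD31, an endothelial surface protein, and mural cells are not the cells such beads select. Each genotype had 1 library, and neither the number of pups behind it nor the inducing agent is stated. All differences below are therefore between 2 libraries, without a replicate check and without a test, and every 95% interval covers counting error only.

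Pericytes share the basement membrane of capillaries and smooth muscle cells ring arterioles. Both are recruited to growing vessels by endothelial PDGF-B acting on PDGFRB, and both mature under Notch and TGF-beta signals. In the mouse retina the vessels spread over the surface during the first postnatal week, so at this age many mural cells are still dividing and arteriolar smooth muscle is still gaining its contractile proteins. Acvrl1 encodes ALK1, a receptor for BMP9 and BMP10 on endothelial cells whose loss gives direct shunts between arteries and veins. The Cre driver is endothelial, so mural cells of the ECKO pups are not the cells in which the label places the deletion.

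Mural cells were 5.57% of filtered ECKO cells (154 of 2764, 4.75 to 6.49%), against 0.158% of filtered control cells (12 of 7583, 0.0818 to 0.276%). Endothelial cells gated the same way on their own markers were also more frequent in the ECKO library, with 1120 cells against 314. Set against mural and endothelial cells together, mural cells made up 12.1% (10.3 to 14%) in ECKO and 3.68% (1.92 to 6.34%) in control. The yield of the beads and the number of cells in the tissue cannot be told apart. The ECKO library held 62728605 UMIs in 5308 barcodes and the control library 54800465 UMIs in 8739. Of these, 2473026 UMIs lay in ECKO mural cells (median 13489.5 per cell, 1096 to 39327) and 170361 in control mural cells (median 12247, 6889 to 26012). The median mitochondrial share was 2.93% in ECKO mural cells and 4.70% in control mural cells. The libraries shared 20 barcode sequences, and 0 of them were mural in either library. Acvrl1 in endothelial-gated cells stood at 119 CPM in ECKO and 115 CPM in control, so these 3' counts do not check the genotype label. Whether the counted transcript end lies outside the deleted exons is not stated. In mural cells Acvrl1 had 77 UMIs (31.1 CPM) in ECKO and 2 UMIs (11.7 CPM) in control. At an even depth of 5000 UMIs per cell (146 of 154 ECKO and 12 of 12 control mural cells were deep enough), 14.4% of ECKO mural cells and 0 of 12 control mural cells (up to 26.5%) held an Acvrl1 UMI. At full depth the shares were 37.0 and 8.33%. The shares at 5000 UMIs stood beside 46.7 and 40.9% of endothelial-gated cells and 1.10 and 0% of cells gated as Müller glia. Piezo1, a mechanically gated channel, had 32 UMIs in ECKO and 2 UMIs in control mural cells, or 12.9 and 11.7 CPM.

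The edges of the gate held few cells. Its summed marker level ran between 1329 and 22567 CPM in ECKO cells (median 8810.4) and between 7194 and 20758 CPM in control cells (median 13824). Just inside, at 1000 to 1500 CPM, lay 2 ECKO cells and 0 control cells. Just outside, at 500 to 1000 CPM, lay 5 ECKO cells and 4 control cells, the highest at 893 and 907 CPM. The endothelial ceiling set aside 113 ECKO and 4 control barcodes that held mural markers as well. These had a median of 42144 UMIs in ECKO and 68066 in control and a median of 6545 and 9307 CPM of endothelial genes. Scrublet, a doublet caller, marked 14 ECKO cells and 1 control cell on its own threshold, so no doublet removal entered the main values. Among cells left out for a low mitochondrial share, 6 ECKO barcodes and 0 control barcodes would have met the marker rule.

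The gated cells carried the markers of mural cells. Of the 6 markers, Abcc9 (a channel subunit of pericytes) and Notch3 (the mural Notch receptor) took no part in the gate. Abcc9 was found in 141 of 154 ECKO cells at a median of 379 CPM (0 to 1707), and in 12 of 12 control cells at a median of 481 CPM (192 to 1572). Notch3 was found in 126 ECKO cells and 12 control cells, at 166 CPM in the pooled ECKO cells and 340.5 CPM in the pooled control cells. At 5000 UMIs per cell, an Abcc9 UMI was present in 83.6% of ECKO and 83.3% of control mural cells, beside 1.66 and 0% of endothelial-gated cells and 1.61 and 0% of rods (91.6 and 100% of mural cells at full depth). Of the gate's own genes, Rgs5, a regulator of G protein signals, was the most abundant. It ran over 872, 5497 and 18353 CPM (lowest, median and highest cell) in ECKO and over 4863, 9405 and 15822 CPM in control. Higd1b, a mitochondrial membrane protein, had medians of 1641 and 2124 CPM, Kcnj8 (the pore of the same channel as Abcc9) 582 and 284 CPM, and Pdgfrb 458 and 667 CPM in ECKO and control. The 2 libraries overlapped over most of their range for each of these genes.

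**Figure D1:**
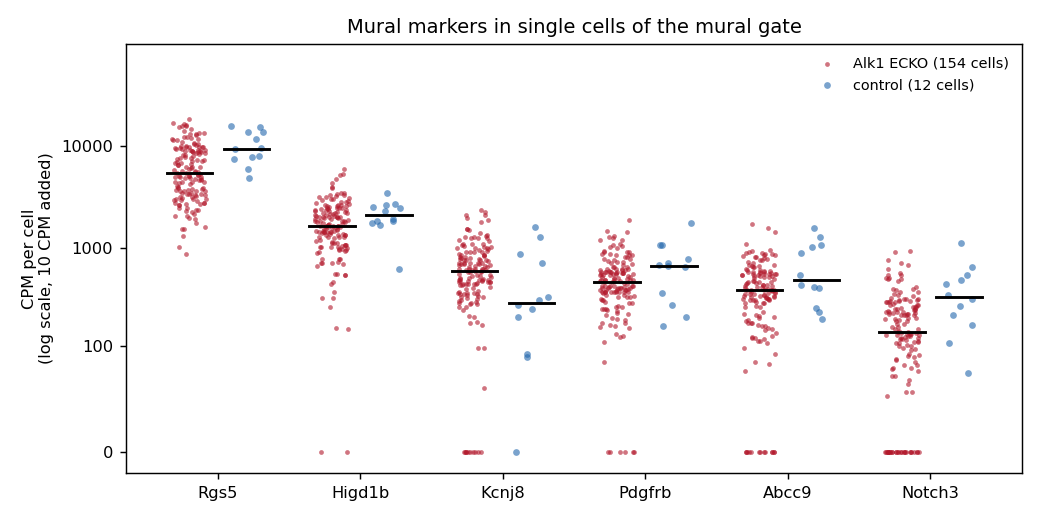
CPM of 6 mural markers in each gated cell, on a log axis after adding 10 CPM, with 154 Alk1 ECKO cells left of 12 control cells for each gene and a bar at the median. Rgs5, Higd1b, Kcnj8 and Pdgfrb belong to the gate; Abcc9 and Notch3 do not, and their cells overlap between libraries.

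Genes of other cell types were summed in the mural cells. The 18 endothelial genes summed to 723 CPM in ECKO and 564 CPM in control, beside 9045 and 10724 CPM in endothelial-gated cells. The gate held 8 of them low, among them Pecam1 and Cdh5 (3 and 10 UMIs in ECKO and 0 each in control). The list members of highest CPM in ECKO mural cells were Esam, also under the ceiling, at 161 CPM in ECKO and 194 CPM in control, Emcn, outside the gate, at 136 and 112 CPM, and Flt1, also under the ceiling, at 118 and 52.8 CPM. The 14 microglial genes summed to 35.2 CPM in ECKO and 47.0 CPM in control, with Fcer1g at 0 in both. The 17 rod genes summed to 411 and 616 CPM, of which Gnb1, a G protein subunit of many cell types, gave 319 and 270.0 CPM, with Gnat1 and Rcvrn at 0 in both. The 15 Müller genes summed to 3210 CPM in ECKO and 2735 CPM in control. Of this Vim, an intermediate filament of many cell types, gave 2961 and 2371 CPM, and Aqp4 was at 0. Astrocyte genes summed to 22.2 and 17.6 CPM, cone genes to 66.3 and 106 CPM, bipolar genes to 37.2 and 241 CPM and amacrine genes to 12.1 and 17.6 CPM. In control the bipolar sum was 25.3 CPM in the median cell, 1076 CPM in the highest cell and 0 in 6 of 12 cells. The highest was the deepest control cell, which also held most control UMIs of the G2/M list described below. Erythroid genes gave 14.6 and 0 CPM and pigment epithelial genes 3.23 and 0 CPM. The 12 fibroblast genes summed to 417 CPM in ECKO and 687 CPM in control. Among them Dcn, Lum and Dpt, their defining genes, had 1, 0 and 0 UMIs in ECKO and 0 each in control. Col3a1, a fibrillar collagen, stood at 122 CPM in ECKO and 247 CPM in control (log2 ratio -1.02) and was called lower in ECKO by the rule below. Col1a1 had 179 UMIs in 43 ECKO cells and 0 in 12 control cells, and lay under the measured level. Its ECKO level was 4.11-fold over the floor of 3 counts per library, which is not a firm minimum with 12 control cells. At 5000 UMIs per cell, 21.9% of ECKO cells (15.5 to 29.5%) and 0 of 12 control cells (up to 26.5%) held it. These intervals overlap, and the difference was not tested. In the other direction, Rgs5 was found in 3.65% of ECKO and 0.338% of control endothelial-gated cells at 5000 UMIs, and in 8.12 and 2.87% at full depth.

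Against all other filtered cells of the ECKO library, 132 of 1593 measured genes (8.29%) were at least 2-fold higher in mural cells and 135 (8.47%) at least 2-fold lower, with a counting interval that excluded equality. The gate chose these cells, so this is a description. After Rgs5, the highest ratios belonged to Mgp, an inhibitor of calcification and BMP signals, to Acta2 (smooth muscle actin) and to Tpm2 (a tropomyosin). Mgp stood at 3106 CPM in ECKO mural cells and 115 CPM in the other ECKO cells. The 25 leading genes fell into recognisable groups. Gucy1a1 and Gucy1b1, the subunits of the nitric oxide receptor, and Ednra, an endothelin receptor, stood for vasoactive signalling. Des, Cryab, Tpm2 and Ppp1r14a (an inhibitor of myosin phosphatase) stood for the cytoskeleton. Cspg4 (the NG2 proteoglycan), Cd248, Vstm4, Aspn and Postn are surface or matrix proteins, and Prrx1 is a mesenchymal transcription factor. Dlk1 and Meg3 are neighbours in an imprinted cluster on chromosome 12. All 6 measured members of the vasoactive and cGMP list were called higher in mural cells, as were 8 of 9 of the pericyte list and 8 of 12 of the smooth muscle contractile list. All 11 measured endothelial genes, 8 of which the gate itself held low, and all 7 measured microglial genes were called lower.

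**Figure D2:**
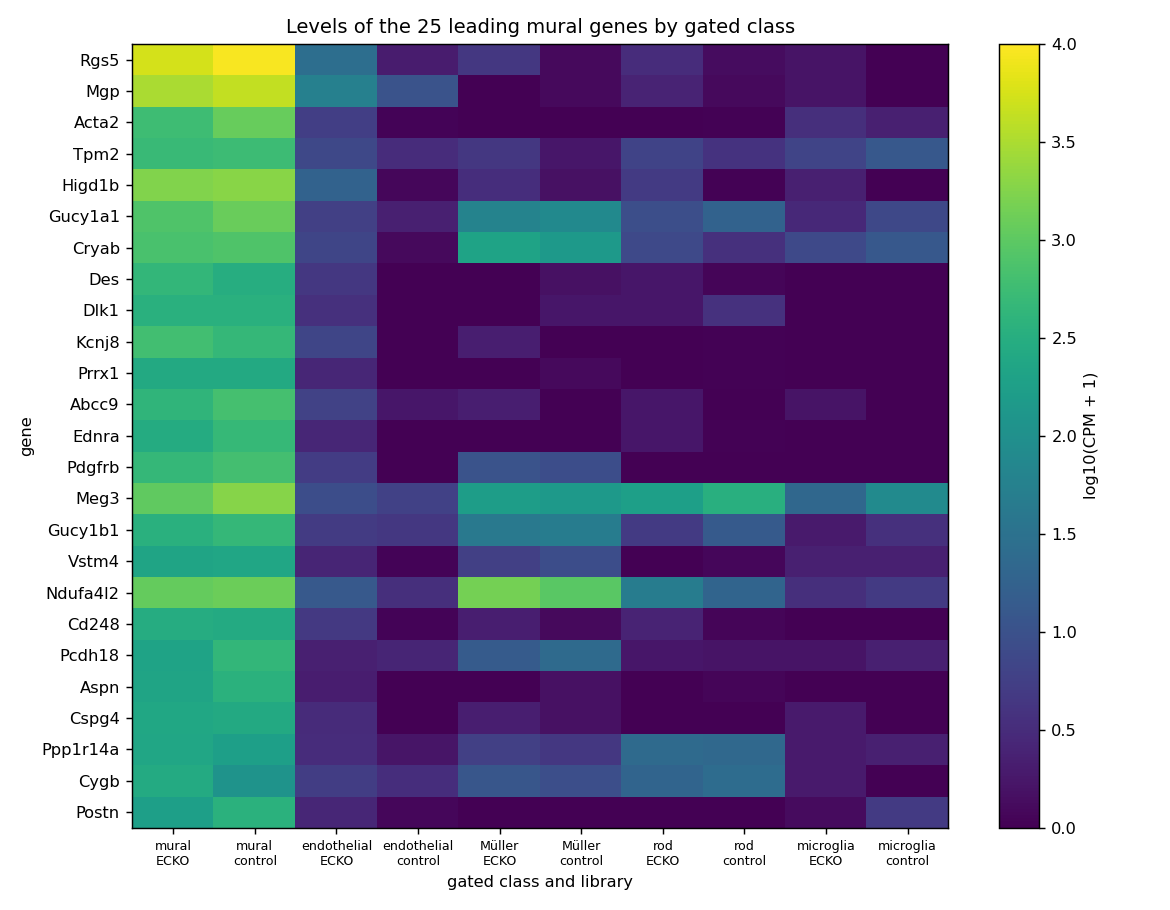
Level of the 25 genes with the highest ratio of mural to other ECKO cells, as log10(CPM + 1), in mural, endothelial, Müller, rod and microglial gates, each with ECKO left of control. Ndufa4l2, Cryab and Meg3 are also present in Müller-gated cells, while Rgs5 stands at 27.1 CPM in ECKO and 1.04 CPM in control endothelial-gated cells.

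Some leading genes were also high in other cells. Ndufa4l2, a hypoxia-responsive mitochondrial protein, had 1146 CPM in ECKO mural cells and 1250.3 CPM in control mural cells. Müller-gated cells held 1439 CPM of it in ECKO and 941 CPM in control, and endothelial-gated cells 12.1 and 2.46 CPM. In endothelial-gated cells 24 of the 25 genes had a higher CPM in ECKO than in control, and Pcdh18 had a lower one. The ECKO library also held more mural cells, and the part of free RNA in these values was not tested.

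Between libraries, mural cells differed beyond 2-fold in a small share of genes. Of 1648 genes with a mean of at least 100 CPM over the 2 libraries, 61 (3.7%) were higher in ECKO and 75 (4.55%) lower, by at least 2-fold with an interval that excluded equality. The median log2 ratio of ECKO over control was 0.07. With ratios set relative to that median, 41 genes were higher and 91 lower. The same rule called 18 higher and 29 lower of 1685 genes in endothelial-gated cells, and 6 higher and 16 lower of 1738 in Müller-gated cells. Of the mural calls, 4 higher and 7 lower genes were called in the same direction in endothelial cells, and 0 in the opposite direction. The control values rest on 12 cells, so single cells weigh heavily. Without each gene's richest cell in either library, 107 genes were higher and 35 lower of 1486 measured, 50 and 35 of them shared with the full count. The removal takes the richest of 12 control cells but of 154 ECKO cells. By design it therefore tends to lower control levels more and to raise the ratios, here and where it is used below.

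The called genes differed in length. Genes called lower had a median annotated span of 46.0 kb, against 14.7 kb for all measured genes and 8.9 kb for genes called higher. Of the genes named below, 6 of the 12 with the lowest ratios and 0 of the 12 with the highest exceeded 100 kb. Spans over 100 kb were found in 25 of 75 lower genes (33.3%), in 0 of 61 higher genes and in 8.74% of all measured genes. The 144 measured genes over 100 kb had a median log2 ratio of -0.48 in mural cells, -0.27 in endothelial-gated cells and -0.22 in Müller-gated cells. Malat1, a nuclear RNA named here after its values were seen, stood at 13383 CPM in ECKO and 26321 CPM in control mural cells (log2 ratio -0.98), with a ratio of -0.54 in endothelial-gated and 0.07 in Müller-gated cells. The part of nuclear or intronic RNA in the ratios below was not tested.

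Genes of dividing cells led the higher side. Ube2c, a ubiquitin enzyme of mitotic exit, had 838 UMIs in 55 ECKO cells (339 CPM) and 7 UMIs in 2 control cells (41.1 CPM), for a log2 ratio of 3.04 (1.99 to 4.36). Cenpa, the centromeric histone, had 192 CPM in ECKO and 29.3 CPM in control (2.71, 1.47 to 4.34). Cenpf, Tpx2 and Cdca8, proteins of the kinetochore and spindle, had log2 ratios of 1.83, 1.68 and 1.61, and each lay in 2 of 12 control cells. Tubb4b, a tubulin, and Ran, the GTPase of nuclear transport and the spindle, had ratios of 1.87 and 1.79. In endothelial-gated cells the ratios of Ube2c, Cenpa and Cenpf were 0.70, 0.36 and 0.16, none of them called. The other leading genes named here were Klf2, Klf6 and Dusp1, early response genes, and Mxra7, a matrix-associated protein. Klf2 stood at 413 CPM in ECKO, in 140 of 154 cells, and at 88.0 CPM in control, in 7 of 12 cells (2.23, 1.5 to 3.07). Its ratio was 1.06 in endothelial-gated cells, where it was also called, and it lay under the measured level in Müller-gated cells. Mxra7 had a ratio of 2.44 in mural cells and lay under the measured level in endothelial-gated cells.

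The lowest ratio belonged to Myh11, the heavy chain of smooth muscle myosin (chromosome 16, 14194535 to 14291372, minus strand, mm10). It had 20 UMIs in 12 of 154 ECKO cells (8.09 CPM) and 38 UMIs in 6 of 12 control cells (223 CPM), a log2 ratio of -4.79 (-5.64 to -3.97). A single control cell held 25 of the 38 UMIs, and without the richest cell of each library the ratio was -3.60. At 5000 UMIs per cell, 4.79% of ECKO cells (1.95 to 9.63%) and 33.3% of control cells (9.92 to 65.1%) held a Myh11 UMI. No endothelial, Müller or rod cell held one in either library at that depth. The next lowest was AY036118, an unnamed transcript of chromosome 17, with 123 CPM in ECKO and 822 CPM in control. Its ratio of -2.75 in mural cells stood beside -2.40 in endothelial and -2.50 in Müller cells. Gpc6, a glypican, and Ndst3, an enzyme of heparan sulfate synthesis, had ratios of -2.43 and -2.05, with 34.8 CPM in ECKO and 188 CPM in control for Gpc6. Eif4a2, Inpp4b, Dmd, Arap2, Tnrc6b and Sesn3 lay between -2.16 and -1.92. Nrep, a gene of tissue repair and migration, was the most abundant of this group, at 333 CPM in ECKO and 1139 CPM in control (-1.77, -2.0 to -1.54). Every control cell held Nrep, at a median of 984 CPM (405 to 2810 CPM), beside a median of 299.7 CPM in ECKO cells. Hist2h2ac, a histone, had a ratio of -1.79, but 33 of its 48 control UMIs came from 1 cell, and without each library's richest cell the ratio was -0.61 and no longer called.

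**Figure D3:**
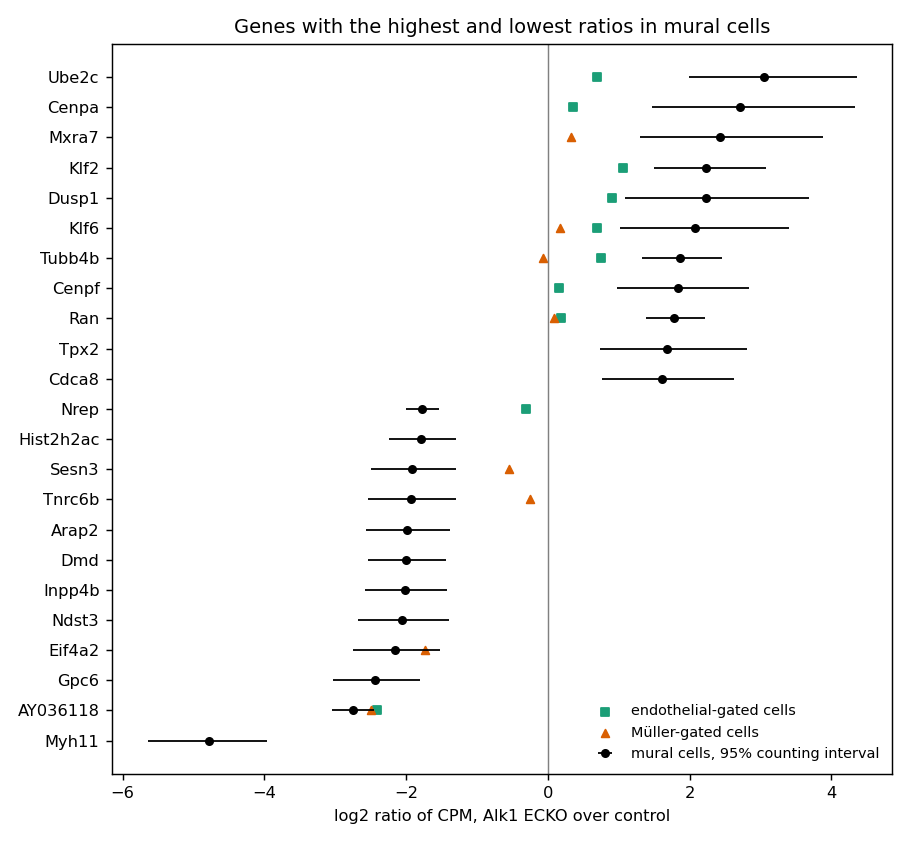
log2 ratio of CPM, ECKO over control, for 11 of the 12 highest and the 12 lowest called genes in mural cells, with 95% counting intervals, beside the ratios in endothelial-gated and Müller-gated cells where a gene was measured there. AY036118 lies low in all 3 classes, Klf2 is high in mural and endothelial-gated cells, and Ube2c, Cenpa and Cenpf are high in mural cells and between 0.16 and 0.70 in endothelial-gated cells.

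Smooth muscle contractile genes build the actomyosin of arteriolar cells and are controlled by serum response factor through the CArG box. Of 14 measured members of this list, Acta2 and Myh11 were called lower in ECKO, 0 were called higher, and the median log2 ratio was -0.57. Acta2 (chromosome 19, 34241090 to 34255590, minus strand) ran over 0, 156 and 9222 CPM (lowest, median and highest cell) in ECKO and over 0, 630 and 4401 CPM in control. Pooled, it stood at 580.3 CPM in ECKO and 1174 CPM in control (-1.02, -1.23 to -0.80). Its ratio without the richest cell of each library was -0.71 and no longer called. Acta2 also lost its call at a mural level of 2000 CPM (-0.99), with endothelial genes under 1000 CPM (-0.97) and after Scrublet removal (-0.98). Tagln, an actin-binding protein of smooth muscle, had 238 CPM in ECKO and 376 CPM in control (-0.66), Myl9 (the regulatory myosin light chain) 651 and 863 CPM (-0.41), and Mylk (its kinase) 247 and 411 CPM (-0.73). Tpm2, Myl6 and Csrp1 lay between -0.10 and 0.23. Cnn1, a marker of mature smooth muscle, had 1 UMI in ECKO and 0 in control, and Pln had 0 in both.

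The CArG box was searched on both strands in RefSeq promoters of GRCm38.p6, from 250 bases before to 50 after the start site. Only its strict form was counted (CC, a run of only A or T, then GG). Of the 20 contractile genes with an entry, 4 held a box in any of their promoters, and 0 of 17 pericyte genes and 0 of 20 vasoactive genes did. Of all 32851 promoters, counted singly and not by gene, 1.63% held one, so the 2 shares are in unlike units. The boxes are shown because they are the matches found in the contractile list. None of these 4 genes was called between libraries, and Srf lay under the measured level. Each runs 5' to 3' on the gene's strand over 30 bases, with the box in capitals.
Myl6, chr10:128493040-128493069, minus strand: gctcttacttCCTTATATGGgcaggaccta
Myl9, chr2:156775293-156775322, plus strand: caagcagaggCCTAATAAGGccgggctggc
Srf, chr17:46556205-46556234, minus strand: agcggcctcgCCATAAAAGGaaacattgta
Srf, chr17:46556225-46556254, minus strand: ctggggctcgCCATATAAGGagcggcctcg
Vcl, chr14:20929161-20929190, plus strand: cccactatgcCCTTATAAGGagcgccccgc
The boxes lie between 50 and 227 bases before the start site. Myl6 and Myl9, with a box each, had log2 ratios of 0.12 and -0.41, and Vcl, a protein of focal adhesions, had -0.75. Acta2, the actin called lower, and Cnn1 held no match to the strict form in the same window. Looser forms of the box, with a G or C within the run, were not searched, so a box in these promoters is not excluded. The motif GTGGGAA, bound by the Notch mediator RBPJ, was found on either strand in 6.38% of all promoters, again counted singly. By gene, it was found in 2 of 17 pericyte genes (Ebf1 and Tbx18) and 2 of 20 contractile genes (Actn1 and Csrp1). It was also found in 5 of 20 vasoactive genes (Adra2a, Gucy1a1, Npr1, Ramp1 and Tbxa2r). A match is a run of letters and not evidence of binding.

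Contractile expression was uneven among mural cells. The summed Acta2, Tagln and Myh11 reached 1000 CPM in 35 of 154 ECKO cells (22.7%, 16.4 to 30.2%) and in 7 of 12 control cells (58.3%, 27.7 to 84.8%). The 2 intervals overlap, which does not show that the shares are alike, and the difference was not tested. The level is a point on a range: 48 ECKO and 4 control cells lay between 500 and 2000 CPM, and 44 and 3 cells were at 0. Within the ECKO library the 35 high cells were set against the other 119. Since the level used Acta2, Tagln and Myh11, these are left out. Of 1603 measured genes, 3 (0.187%) were at least 2-fold higher in the high cells and 0 lower. The 3 were Cavin3 (159 against 67.2 CPM), a protein of caveolae, Hspb1 (171 against 79.4 CPM), a small heat shock protein of muscle, and Tpm2 (842 against 411 CPM). Myl9 and Tpm1 came close, with log2 ratios of 0.92 and 0.89. The pericyte genes Kcnj8, Abcc9 and Cspg4 had ratios of -0.48, -0.49 and -0.45 in the same split, short of the call. Without the contractile cells of both libraries, 119 ECKO and 5 control cells remained, and 15 of the 49 named genes called between libraries changed their call. Of these 15, Acta2 was called higher instead, and the rest were no longer called. Among them were Gja4 (-0.45), Notch3 (-0.59), Itga4 (-0.56), Inpp4b (-0.55), Gpc6 (-0.99) and Myh11 (-0.99), which the selection itself used. Pde3a (-1.38) and Nrep (-1.30) were still called. The median of the contractile list between libraries was then 0.13, and Acta2, whose low level in the remaining control cells the selection fixes, was higher in ECKO with a ratio of 3.11.

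The pericyte list lay mostly below 0 on the log2 scale between libraries. Its calls, 1 of 16, stood beside 3.7% higher and 4.55% lower among all measured genes. Of its 16 measured members, 14 had a negative and 2 a positive log2 ratio. Notch3 was called lower in ECKO and 0 were called higher. The median log2 ratio was -0.26, beside 0.07 for all measured genes. Notch3 stood at 166 CPM in ECKO and 340.5 CPM in control (-1.04, -1.44 to -0.62). Its ratio was -0.91 without the cells over the G2/M level, -0.59 without contractile cells and -0.85 without the richest cell of each library, and it was no longer called in these. Des, the muscle intermediate filament, and Mcam, an adhesion molecule, were at 0.50 and 0.52, with 441 and 345 CPM in ECKO and 311 and 241 CPM in control. Vtn (vitronectin) had 192 CPM in ECKO and 293 CPM in control, Zic1 178 and 199.6 CPM, and Cspg4 244 and 270.0 CPM. Anpep (CD13) had 31.9 and 47.0 CPM and Tbx18, a mural transcription factor, 32.4 and 47.0 CPM, both under the measured level. Outside the lists, Pcdh18 (205 CPM in ECKO, 446 CPM in control) was called lower and Cygb, a globin of pericytes and stellate cells, was called higher (274 and 112 CPM). Cygb was found in 104 of 154 ECKO cells and 4 of 12 control cells.

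Genes of vessel tone and ion transport were mostly below 0 on the log2 scale. Of 8 measured vasoactive and cGMP members, Prkg1 (the cGMP-dependent kinase) and Pde3a (a cyclic nucleotide phosphodiesterase) were called lower, 0 were called higher, and the median was -0.68. Pde3a had 84.1 CPM in ECKO and 276 CPM in control (-1.71, -2.18 to -1.22), and Prkg1 74.8 and 176 CPM (-1.24). Gucy1a1 stood at 779 CPM in ECKO and 1239 CPM in control (-0.67), Ednra at 286 and 481 CPM (-0.75), and Tbxa2r, the thromboxane receptor, at 225 and 188 CPM (0.26). Prkg1 spans 1200.5 kb and Pde3a 258 kb of the genome, in the range of long genes described above. Of 5 measured ion channels and pumps, Atp1b2 was called lower (91.0 CPM in ECKO and 182 CPM in control, -1.0, a call that ended under most of the alternatives tried), 0 were called higher, and the median was -0.83. The 12 measured RGS and G protein genes had 0 calls and a median of -0.01.

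Matrix genes were abundant in mural cells. Col4a1, a chain of basement membrane collagen, had 3316 CPM in ECKO and 4937 CPM in control, and Col4a2 had 1337 and 2307 CPM (log2 ratios -0.57 and -0.79). Of 10 measured basement membrane genes, Agrn (agrin) was called lower (103 CPM in ECKO and 223 CPM in control, -1.11), 0 were called higher, and the median was -0.57. Agrn lost its call without contractile cells (-0.14), without cells over the G2/M level (-0.91), with cells weighted equally (-0.75) and without the richest cell of each library (-0.80). In endothelial-gated cells the median of the same list was -0.08. The 12 measured matrix remodelling genes had 0 calls and a median of -0.18. Mgp stood at 3106 CPM in ECKO and 4309 CPM in control, Igfbp7 at 3695 and 3739 CPM, and Postn at 178 and 352 CPM (-0.99). Of 10 measured integrin and adhesion genes, Itga4 (the alpha chain of a receptor for fibronectin and VCAM1), Ncam1 and Gja4 were called lower and 0 higher, with a median of -0.49. Ncam1 (-1.32) was no longer called without the deepest cell of each library (-0.36), after Scrublet removal (-0.42) or without contractile cells (-0.32). It was also not called with cells weighted equally (-0.96), without cells over the G2/M level (-0.70) or without the richest cell of each library (-0.41). Gja4, the gap junction protein connexin 37, had 296 CPM in ECKO and 728 CPM in control (-1.30, -1.58 to -1.01) and a ratio of 0.06 in endothelial-gated cells.

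Signalling genes were mostly too low for a comparison with 12 control cells. Of the Notch list 3 members were measured. Nrarp, a feedback target, had 116 CPM in ECKO and 205 CPM in control (-0.82), and Hes1 222 and 252 CPM (-0.18). Heyl, a mural Notch target, had 82.5 and 117 CPM, under the measured level. Of 4 measured PDGF response genes, Lrp1 was called lower (82.5 CPM in ECKO and 199.6 CPM in control, -1.27) and 0 higher, with a median of 0.10. Lrp1 lost its call without cells over the G2/M level (-0.69), with cells weighted equally (-0.95) and without the deepest cell of each library (-0.99). Of the BMP and TGF-beta receptors and transducers only Bmpr2 was measured, at 95.4 CPM in ECKO and 147 CPM in control (-0.62). Of SMAD targets, Id3 had 1268 CPM in ECKO and 1350.1 CPM in control (-0.09), and Id1 254 and 135 CPM (0.91, 0.32 to 1.58), neither called. Id3 had a ratio of -1.02 in endothelial-gated cells. Among ligands, Ptn (pleiotrophin) had 664 and 605 CPM and Pdgfa 160.1 and 93.9 CPM, neither called. Angpt1, the mural ligand of the endothelial receptor Tie2, had 22 UMIs in 20 of 154 ECKO cells (8.90 CPM) and 6 UMIs in 5 of 12 control cells (35.2 CPM), under the measured level. The measured solute transporters (2) and lipid genes (1) had 0 calls, with medians of -0.06 and 0.05.

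**Figure D4:**
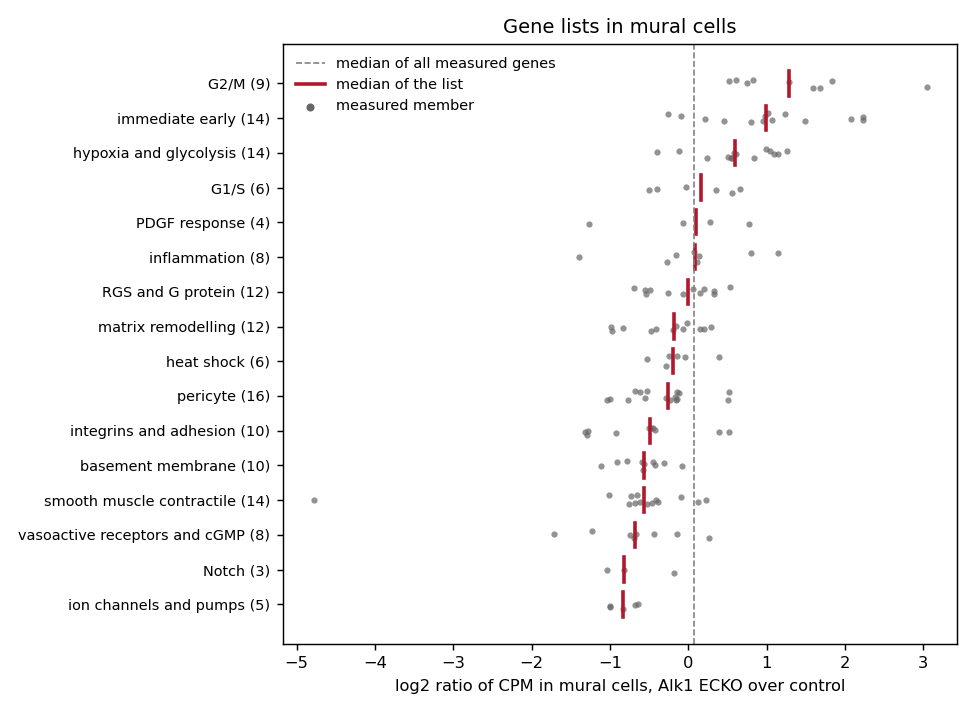
log2 ratio of CPM in mural cells, ECKO over control, for the measured members of each gene list with at least 3, each dot a gene, with the list median in red and the median of all measured genes (0.07) dashed. G2/M, immediate early, and hypoxia and glycolysis genes lie to the right of that line, and ion channel, Notch, vasoactive, contractile and basement membrane medians to its left.

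The G2/M list had the highest median. Of its 9 measured members, 5 were called higher (Ube2c, Birc5, Cenpe, Cenpf and Tpx2) and 0 lower, with a median log2 ratio of 1.29. Mki67 and Top2a, the usual proliferation markers, were not called, at 260.4 and 332 CPM in ECKO and 182 and 217 CPM in control (0.52 and 0.61). A summed G2/M level of 500 CPM was reached by 61 of 154 ECKO cells (39.6%, 31.8 to 47.8%) and 2 of 12 control cells (16.7%, 2.09 to 48.4%). The intervals overlap, and with 12 control cells the control interval is wide. Overlap does not show that the shares are alike, and the difference was not tested. Thinned to 5000 UMIs the shares were 40.4 and 16.7%. Endothelial-gated cells reached the level in 43.2% of ECKO and 36.0% of control cells, and Müller-gated cells in 3.77 and 2.84%. The G1/S list, whose 6 measured members include Pcna and Mcm6, had 0 calls and a median of 0.16. The deepest control cell held 160 of all 216 control UMIs of the G2/M list, and without the deepest cell of each library the G2/M median was 3.15 over the 6 members then measured.

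Mural cells over and under the G2/M level were compared within the ECKO library, where the 61 cells over it had a median of 22453 UMIs and the other 93 a median of 10113. Genes of the G2/M list are left out, and the genes named here were chosen after their values were seen. Of 1608 measured genes, 57 (3.54%) were at least 2-fold higher in cells over the level and 18 (1.12%) lower. Linker and core histones led the higher side, with Hist1h1b at 1655 CPM in cells over the level and 3.69 CPM in the others. The lower side held Cdkn1c, an inhibitor of the cell cycle (72.7 and 228 CPM), Cst3 (cystatin C, 269 and 880 CPM), Ckb, Mxd4 and Btg2. It also held the mural genes Tagln (135 and 369 CPM, -1.45), Aspn (132 and 316 CPM, -1.26) and Gja4 (199 and 419 CPM, -1.08). Rgs5 had 4245 CPM over the level and 7034 CPM in other cells (-0.73) and Mgp 2460.5 and 3931 CPM (-0.68), both short of the call, while Acta2 (-0.08) and Abcc9 (-0.14) were nearly level. Between libraries, the Gja4 ratio was -0.78 and no longer called once cells over the level were left out.

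Immediate early genes are induced within minutes of stress or handling as well as by growth signals. Of 14 measured, 7 were called higher in ECKO mural cells (Fos, Fosb, Jun, Ier2, Dusp1, Klf2 and Klf6) and 0 lower, with a median log2 ratio of 0.99. Fos stood at 1143 CPM in ECKO and 487 CPM in control (1.23, 0.92 to 1.56), while Junb (908 and 787 CPM), Atf3 (143 and 153 CPM) and Btg2 (231 and 276 CPM) were not called. In endothelial-gated cells the list's median was 0.91, with 3 of 11 called higher, and in Müller-gated cells 0.14. Jun (0.90) lost its call without the deepest cell of each library, and Fos (0.94) and Fosb (0.76) without contractile cells. The part of dissociation in these values was not tested. The heat shock list had 0 calls of 6 and a median of -0.20. Of 8 inflammation genes, Nfkbia, the feedback inhibitor of NF-kB, was called higher (389 CPM in ECKO and 176 CPM in control, 1.14) and Ifitm1 lower (80.5 and 211 CPM, -1.39), with a median of 0.09. Nfkbia lost its call after Scrublet removal (0.96), without contractile cells (0.85) and without the deepest cell of each library (0.97). Ifitm1 lost it with cells weighted equally (-0.88) and without the richest cell of each library (-0.95).

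A minority of glycolytic genes were called higher as well. Of 14 measured hypoxia and glycolysis genes, Eno1, Pkm, Ldha and Mif were called higher, 0 were called lower, and the median log2 ratio was 0.59. The sub-cluster with the highest sum of this list, described below, held 32 ECKO cells and 0 control cells, and its part in these ratios was not tested. Ldha, which makes lactate, stood at 1107 CPM in ECKO and 464 CPM in control (1.25, 0.93 to 1.6), Pkm at 688 and 335 CPM (1.04) and Gapdh at 1726 and 869 CPM, just short of the call (0.99). Bnip3l and Ndufa4l2, targets of hypoxia-inducible factor, were at -0.40 and -0.13. The list's median was 0.31 in endothelial-gated and 0.61 in Müller-gated cells, with 0 calls in either. Weighting each cell equally ended the calls of Pkm (0.85) and Mif (0.80), and Eno1 (1.0) lost its call without the deepest cell of each library. Without cells over the G2/M level, Eno1 (0.95), Mif (0.77) and Pkm (0.98) were not called, and Ldha was called under every alternative that gave it a value.

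**Figure D5:**
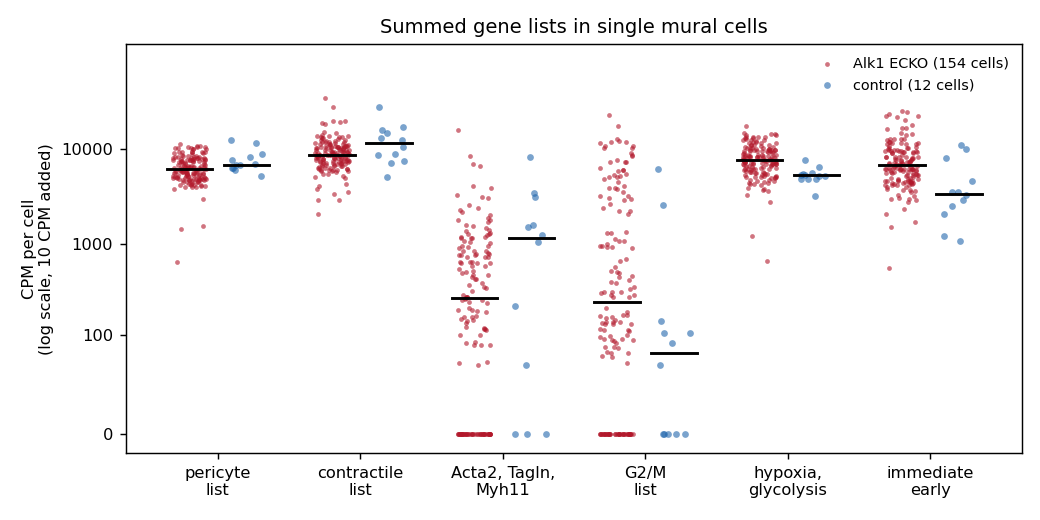
Summed CPM of 6 gene groups in each mural cell, on a log axis after adding 10 CPM, with ECKO left of control and a bar at the median. The pericyte sums overlap closely (medians 6088 and 6784 CPM), the Acta2, Tagln and Myh11 sums spread between 0 and 15904 CPM in ECKO, and the G2/M sums split into low and high cells.

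Clustering the 166 cells gave 4 sub-clusters of 49, 44, 41 and 32 cells, and their leading genes are a description only. The largest had low folds and was led by Cxcl10, Kcne4, Dusp2 and Ogn. Another, of 44 cells, was led by Hes5, Myh11, Cst3 and Id2. However, 61 of the 79 ECKO Hes5 UMIs and 25 of the 38 control Myh11 UMIs each lay in 1 cell. The 41 cells were led by Hist1h1b, Top2a and Ube2c, with 8 G2/M genes among the top 20 and a median of 26951 UMIs. The last was led by Ankrd37, Slc16a3 and Coro1a, with 4 hypoxia and glycolysis genes among the top 20, among them Pgk1. Its hypoxia and glycolysis sum was 10827 CPM, against 6225 CPM in the sub-cluster of 44 cells. All 4 held the 4 gate genes at 6060.1 CPM or more, as the gate required high levels of these genes in every cell. In the order above they held 45, 38, 39 and 32 ECKO cells and 4, 6, 2 and 0 control cells. These sizes were not compared between libraries, since the genes that differ also set the clusters.

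The libraries also differed in transcripts unrelated to mural identity. Xist, the RNA of the inactive X chromosome, had 39.2 CPM in ECKO and 241 CPM in control mural cells (-2.62), with -1.45 in endothelial-gated cells. Without cells over the G2/M level its ratio in mural cells was -0.12 and no longer called. Y-linked Ddx3y was present in both, at 48.5 and 29.3 CPM. The makeup of the libraries by sex and the genotype cannot be told apart. Gm42418, at the same locus as AY036118, stood at 2307 CPM in ECKO and 14058 CPM in control mural cells, and its ratio of -2.61 was matched by -2.33 in endothelial-gated and -2.27 in Müller-gated cells.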

How the data were processed

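Each library was deposited as a sparse matrix of unnormalized UMI counts. Cell Ranger 5.0.1 wrote these matrices, per the file headers, whereas the submitters' processing notes give mm10 as build and list FastQC 0.11.9 with Cell Ranger 6.1.1. Libraries were made with a 10x Genomics 3' kit per the labels' protocols. Whether intronic reads were counted and how barcodes were chosen is not stated. The files list 32285 genes, and 32158 gene IDs were given positions from GENCODE vM21 (mm10).

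The members and the 36 gene lists (617 entries, 616 in the files) were chosen with earlier results of these data known. UMIs were summed over the mural cells of a library and divided by all gene UMIs of those cells to give CPM. Ratios between libraries carry 95% intervals from the exact binomial distribution conditional on both libraries' UMIs, and shares of cells carry Clopper-Pearson ones. All cover counting error only, since cells are not replicates. A gene was measured from a mean of 100 CPM over both libraries and called from 2-fold with an interval that excluded equality. A ratio against 0 UMIs used a floor of 3 counts per library. With 1 library per genotype no test was made.

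Comparison gates needed 4000 CPM of endothelial, Müller (Rlbp1, Glul, Slc1a3, Aqp4, Car14, Dkk3, Sox9, Crym) or rod genes (6 genes), or 5000 CPM of microglial genes (C1qa, C1qb, C1qc, Csf1r, Tyrobp, Fcer1g). Non-endothelial gates also needed under 2000 CPM of endothelial and under 1000 CPM of mural genes. These levels, and those for G2/M and contractile cells, were set after the files were seen.

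Named between libraries are the 12 highest and 12 lowest ratios past the call, leaving out predicted genes, sex-linked genes, those of ribosomes, mitochondria and haemoglobin, the listed genes of other cell types, and genes over 5 times the mural level in another gate of the library where they are higher. Named against other cells are the 25 highest ratios, with 10 CPM added to both. In each list the most abundant, highest, lowest and called members could be named, and up to 10 leading genes per sub-cluster. Some genes that meet this rule are not reported here. Malat1, Gm42418, Cavin3, Hspb1 and the genes of the splits by G2/M and contractile level lie outside this rule. Sub-clusters used 2000 variable genes, 15 components, 15 neighbours and Leiden resolution 0.8 (scanpy 1.11.5, leidenalg 0.10.2, scikit-learn 1.9.0). Other steps used Python 3.11.15, numpy 2.4.6 and scipy 1.17.1. The interval calculation was tested on simulated counts. It covers counting error only, and the spread between cells lies outside it.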

Additional observations from a re-analysis of the deposited data

How the results depend on the processing

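Over 168 alternatives for the comparisons (shares, counts of called genes and list medians), 155 stayed close to the value given and 13 moved. Over 2494 for the ratios of named genes, 2323 stayed close, 170 moved and 1 reversed. Of these, 680 were ratios of called genes, with 614 close, 65 moved and the 1 reversed. A change of sign in a gene without a call was not counted as reversed. The reversed ratio was that of Acta2, at 3.11 on the log2 scale without contractile cells. That selection itself takes Acta2-high cells out of both libraries. Staying close does not show that a value is stable, because the 12 control cells leave wide intervals. The ECKO share was 3.78% (160 of 4237) with no lower bound on the mitochondrial share. From 50 CPM, 121 genes were higher and 216 lower in ECKO. From 200 CPM, 24 were higher and 15 lower, and without each gene's richest cell 107 and 35. The median log2 ratio of the G2/M list was 3.17 after Scrublet removal, 1.98 without contractile cells, 3.15 without the deepest cell of each library and 3.05 without each gene's richest cell. Scrublet removal took 3 ECKO mural cells and 1 control mural cell. Whether that control cell was the deepest one is not given. The pericyte median was -0.13 without cells over the G2/M level, and the contractile median 0.13 without contractile cells. Removing each gene's richest cell tends by design to raise ratios, since it takes more from 12 control cells than from 154 ECKO cells. The cause of the other shifts was not tested. Calls were lost by 7 of 49 called named genes after Scrublet removal and 9 with cells weighted equally. They were lost by 13 without cells over the G2/M level and 7 without the deepest cell of each library. Without contractile cells 15 calls changed, of which Acta2 turned to higher and the rest were lost. For 12 gene ratios too few UMIs were left to give a value. Among these, without cells over the G2/M level, were the called genes Ube2c, Birc5, Cenpe, Cenpf, Tpx2 and Cdca8. They are not counted in the 13, and their calls could not be checked in that setting. The mural level of 4000 CPM, the removal of each gene's richest cell and thinning to 5000 UMIs were added after the data were seen. No paired analysis was possible because each genotype had 1 library. The 170361 control UMIs of 12 cells limit every ratio, and most genes of the BMP, SMAD, Notch and PDGF lists lay below the measured level.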
